A study of Mus musculus with 24 samples.

Results

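Mitochondrial ribosomal proteins are the nuclear-encoded proteins of the mitochondrial ribosome, and their messenger RNAs were examined here in single erythroid progenitors. Members were the protein-coding genes whose symbol starts with Mrpl or Mrps followed by a digit. This gave 78 of the 49585 gene rows in the table, 51 of the large subunit and 26 of the small subunit. The remaining gene, Mrps36, is named for the small subunit but encodes a component of the oxoglutarate dehydrogenase complex. Mrps18a and Mrps30 were counted with the large subunit, where their proteins sit despite the symbol.

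The samples were 24 single cells of 1 group, burst-forming units-erythroid (BFU-E), the earliest progenitors restricted to red cell production that form bursts of colonies in culture. They came from fetal liver of C57/Bl6J mice at embryonic day 14.5, without any further genotype or treatment in the labels. Cells bearing lineage antigens, Sca-1, CD16/32 or CD41 had been depleted on magnetic beads, and the rest were sorted after staining for CD24, CD71 and CD117. Each well was processed by Smart-seq2, a plate method in which reads cover whole polyadenylated transcripts after PCR. The plate columns used below were read from the last digit of each cell's deposited name, which has the form of a well. They are an inference from these names. No embryo is named for any cell, so the group is a single sample, and means ± SD, ranges and correlations over the 24 cells describe these cells without a p-value.

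The mitochondrial ribosome translates the few messenger RNAs of the mitochondrial genome, all of which encode subunits of the respiratory chain and the ATP synthase. Its ribosomal RNAs are transcribed in the mitochondrion, while every one of its proteins is made in the cytosol and imported. Some of these proteins descend from those of the bacterial ribosome and others were gained in the mitochondrial lineage. In erythroid cells mitochondria also house the first and last steps of haem synthesis.

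The promoters of the members give a first look at what they share. Windows from 250 bases before to 50 after the RefSeq start (GRCm38.p6) were found for 69 of the 78. Of these, 26 (37.7%) held CCGGAAG, the letters bound by ETS factors such as GABP, against 12.9% of 17491 protein-coding genes and 28.0% of the 4586 that were detected in at least 12 of these cells. Cytosolic ribosomal protein genes held these letters about as often, in 26 of 64 windows (40.6%). The NRF1 letters CGCATGCG stood in 7 windows (10.1%), against 2.77% of all genes, 6.11% of the detected ones and 4.69% of the cytosolic ribosomal proteins. The YY1 letters AAGATGGCG stood in 8 (11.6%), against 2.14%, 5.08% and 6.25%. Each motif was searched on both strands. CCGGAAG and AAGATGGCG can overlap in AAG, which none of the member windows showed. At least 1 of the 3 was in 36 windows, 5 windows held 2 of them (Mrpl17, Mrpl22, Mrps18a, Mrps18b and Mrps27) and 0 held all 3.

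Windows from 100 bases before to 30 after the start are printed for 6 members, from RefSeq on GRCm38.p6, 5′ to 3′ on the strand of the gene, with matches on either strand in capitals. Mrpl22 (chr11:58171564-58171693, plus strand) shows an ETS and an NRF1 match. Mrps27 (chr13:99344686-99344815, plus strand) and Mrps18a (chr17:46110904-46111033, plus strand) each show an ETS match before the start and a YY1 match after it. Mrpl32 (chr13:14613008-14613137, minus strand) shows 2 NRF1 matches. Mrpl53 (chr6:83109008-83109137, plus strand) is shown because it was the member detected in the fewest cells, with 2 ETS matches, and Mrpl12 (chr11:120484537-120484666, plus strand) because it had the highest level, with 0 matches.
Mrpl22: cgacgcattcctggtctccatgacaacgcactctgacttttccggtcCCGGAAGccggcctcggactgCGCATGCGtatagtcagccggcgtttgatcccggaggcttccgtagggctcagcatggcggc
Mrps27: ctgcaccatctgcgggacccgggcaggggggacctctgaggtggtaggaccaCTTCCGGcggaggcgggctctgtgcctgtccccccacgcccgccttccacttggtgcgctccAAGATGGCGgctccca
Mrps18a: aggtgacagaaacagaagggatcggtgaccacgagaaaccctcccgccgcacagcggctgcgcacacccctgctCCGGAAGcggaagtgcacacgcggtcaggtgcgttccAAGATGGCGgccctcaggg
Mrpl32: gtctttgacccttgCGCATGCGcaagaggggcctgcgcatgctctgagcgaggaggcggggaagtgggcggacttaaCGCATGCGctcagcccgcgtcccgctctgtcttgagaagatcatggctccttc
Mrpl53: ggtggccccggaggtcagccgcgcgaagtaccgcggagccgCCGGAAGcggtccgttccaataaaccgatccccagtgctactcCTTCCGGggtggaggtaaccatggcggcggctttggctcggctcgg
Mrpl12: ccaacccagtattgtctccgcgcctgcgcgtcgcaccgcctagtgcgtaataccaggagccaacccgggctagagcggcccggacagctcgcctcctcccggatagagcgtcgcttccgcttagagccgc

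Within the window the matches stood at different distances from the start. The median centre of the 31 ETS matches lay 14 bases before it, that of the 8 NRF1 matches 55 bases before it, and that of the 8 YY1 matches 22.5 bases after it. Levels per kilobase differed little by the ETS letters. The median of the mean level was 49.6 CPM (counts per 1000000 counts of the cell) per kilobase for the 26 with an ETS match. It was 49.2 for the 43 without. By the NRF1 letters the medians were 49.2 for 7 members with and 49.6 for 62 without. By the YY1 letters they were 37.4 for 8 with and 50.5 for 61 without. In CPM not divided by length the YY1 order was the opposite, 150 with and 124 without. The ETS medians in CPM were 110 with and 128 without. Of the other short motifs, the E-box CACGTG was in 5 member windows (7.25%, against 8.91% of all and 13.8% of the detected genes), the GC box GGGCGG in 34 (49.3%, against 49.2% of all and 71.5% of the detected genes) and TATAAA in 5 (7.25%, against 14.8% and 7.30%).

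The libraries differed in ways that bear on the results. Total counts ran from 876983 to 2155010 per cell, so that a count of 0 allowed up to 3 counts, or 1.39 to 3.42 CPM. All 8 erythroid progenitor markers checked (Kit, Myb, Gata1, Gata2, Klf1, Epor, Car2 and Tal1) were detected in at least 12 cells, detected meaning 5 counts or more. Klf1, the erythroid transcription factor, stood under 10 CPM in 5 cells. One of these, cell 1, carried 8772 CPM of the myeloid markers Mpo, Elane, Prtn3 and Ctsg, whose sum had a median of 20.1 CPM and was 0 in the lowest cell. Of the other lineages 1 of 4 myeloid, 1 of 3 megakaryocyte, 1 of 3 hepatocyte, 0 of 3 macrophage and 0 of 3 lymphoid markers were detected in at least 12 cells. The sums reached 564 CPM for megakaryocyte markers in cell 12, 797 for hepatocyte markers in cell 10, 462 for macrophage markers in cell 1 and 169 for lymphoid markers in cell 19. Cell 19, with 0.810 CPM of Klf1, stood apart in the member genes, and the main relations below are also given without it or without the 5 cells low in Klf1.

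Nearly the whole set of mitochondrial ribosomal protein genes was expressed in these progenitors. Of the 78 members, 77 were detected in at least 12 cells (98.7%, against 26.1% of the 21734 protein-coding genes), and 25 were detected in all 24 (32.1%, against 5.17%). Another 47 were detected in 20 to 23 cells and 5 in 12 to 19. Broad detection was not particular to the members. All 77 nuclear genes of the respiratory chain and ATP synthase were detected in at least 12 cells, 64 of them in all 24. Of the 85 cytosolic ribosomal protein genes, 82 were detected in all 24. Of the 1872 values that 78 genes in 24 cells give, 1734 (92.6%) reached 5 counts, 1049 (56.0%) reached 100 CPM and 79 (4.22%) were 0. Of the 77 broadly detected members, 35 (45.5%) had at least 1 cell with 0 counts, against 68.4% of the 5962 genes detected in at least 12 cells.

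**Figure D1:**
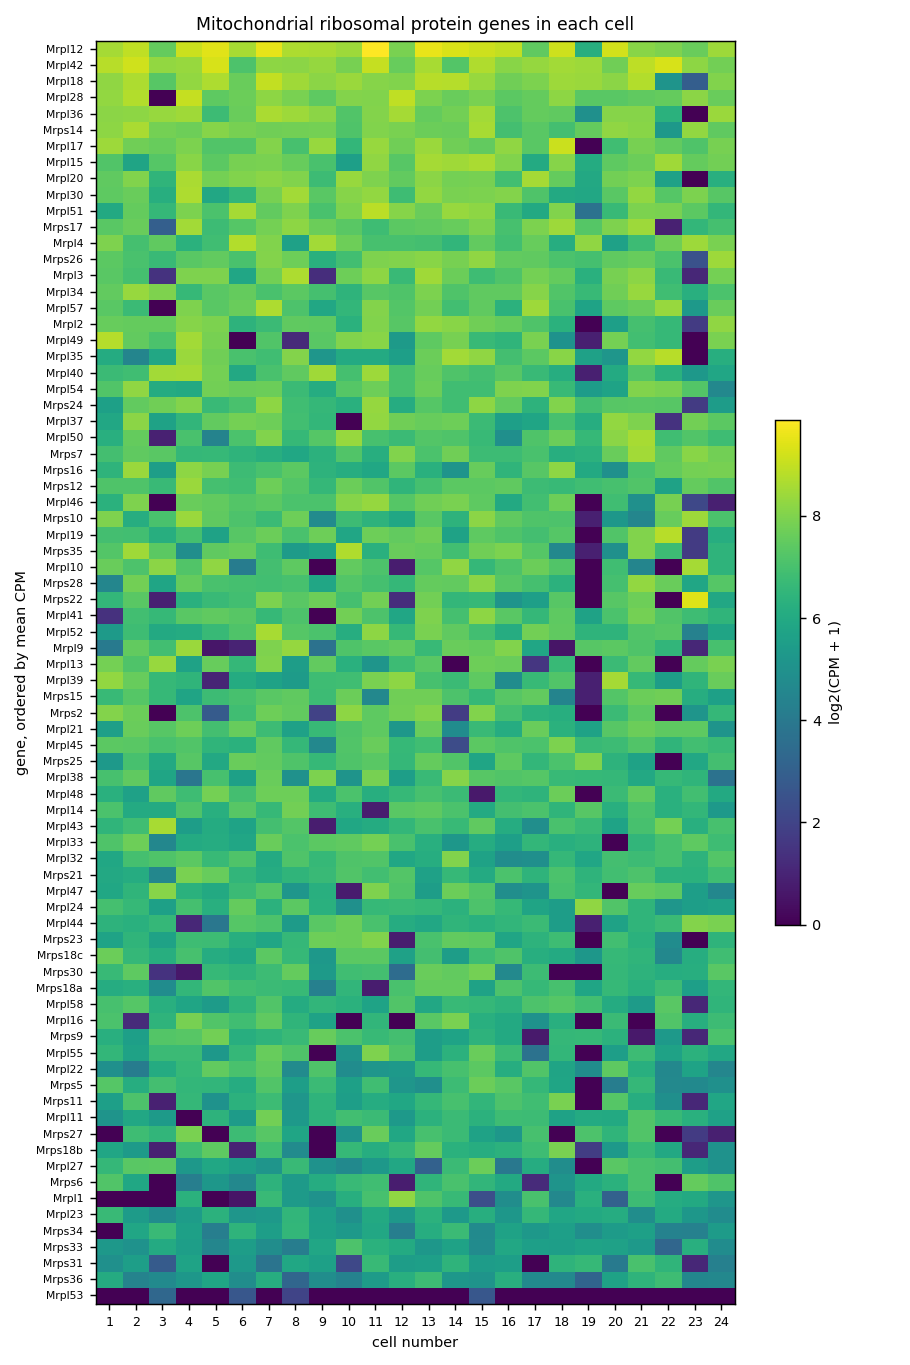
Levels of the 78 genes (rows, ordered by mean CPM) in each of the 24 cells (columns, by cell number), with the colour giving log2(CPM + 1). Dark squares are values at or near 0; cell 19 has 18 of them at 0 counts, and the bottom row, Mrpl53, is dark in most cells.

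The number of members detected per cell had a median of 74 and ran from 52 in cell 19 to 77. After each cell was thinned to 876983 counts the lowest, median and highest were again 52, 74 and 77. Cell 19 missed 26 members, 18 of them at 0 counts, and cell 23, the library with the fewest counts, missed 20, of which 6 were at 0. Cell 3 followed with 12 missed. The other cells missed 10 or fewer. Over the 24 cells, the number of members detected followed the number of all genes detected (Spearman rho 0.68).

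Mrpl53, a large-subunit protein without a bacterial homologue, was the exception. It had 10, 11, 5 and 9 counts in cells 3, 6, 8 and 15 and 0 counts in the other 20. The gene lies on chromosome 6 from 83109040 to 83109939 (GRCm38, plus strand), and 695 of its 790 exonic bases are also annotated as exons of Ccdc142os, on the opposite strand, or Gm42688, on the same strand. Libraries without strand information cannot assign reads there, and whether the overlap set the low count was not tested. In all, 33 members (42.3%) have exons that overlap those of another gene, against 29.6% of protein-coding genes. The next most sparsely detected were Mrps27, a pentatricopeptide repeat protein, in 17 cells, and Mrpl1, Mrpl16 and Mrps18b in 19 each.

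Taken as a sum, the members held 1.05% ± 0.206 of all counts in a cell (mean ± SD over 24 cells). The sum ran from 0.540% in cell 19 (exact binomial 95% interval 0.527 to 0.553, counting error only) to 1.39% in cell 11 (1.37 to 1.41). The 85 cytosolic ribosomal protein genes held 7.51% ± 0.632, and the 77 nuclear genes of the respiratory chain and ATP synthase 2.97% ± 0.323. No single member dominated: the 1, 3 and 10 members with the highest mean CPM carried 4.22%, 10.4% and 24.9% of the member counts.

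Levels were compared between genes as CPM per kilobase of summed exon length. The median member stood at 48.2 CPM per kilobase, against 379 for the cytosolic ribosomal proteins, 185 for the nuclear respiration genes and 0.10 for all protein-coding genes. Means of single members ran from 1.19 for Mrpl53 to 290 for Mrpl12. The 47 members with a bacterial homologue and the 30 without one had medians of 49.2 and 48.2. The large subunit had a median of 56.8 and the small subunit 39.2.

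These ranks rest in part on which exons are counted as the length of the gene. With the longest coding transcript the median member was at 76.3 CPM per kilobase and with the APPRIS principal transcript at 79.3, and 5 and 4 of the 8 highest members stayed among the highest 8. The large and small subunit medians drew closer, to 81.3 and 69.1 with the former and 82.5 and 73.7 with the latter. Mrpl42, a large-subunit protein without a bacterial homologue, went from 94.4 to 522 and 524 and became the highest member. Mrpl33 has 15.3 times more annotated exonic length than its principal transcript.

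**Figure D2:**
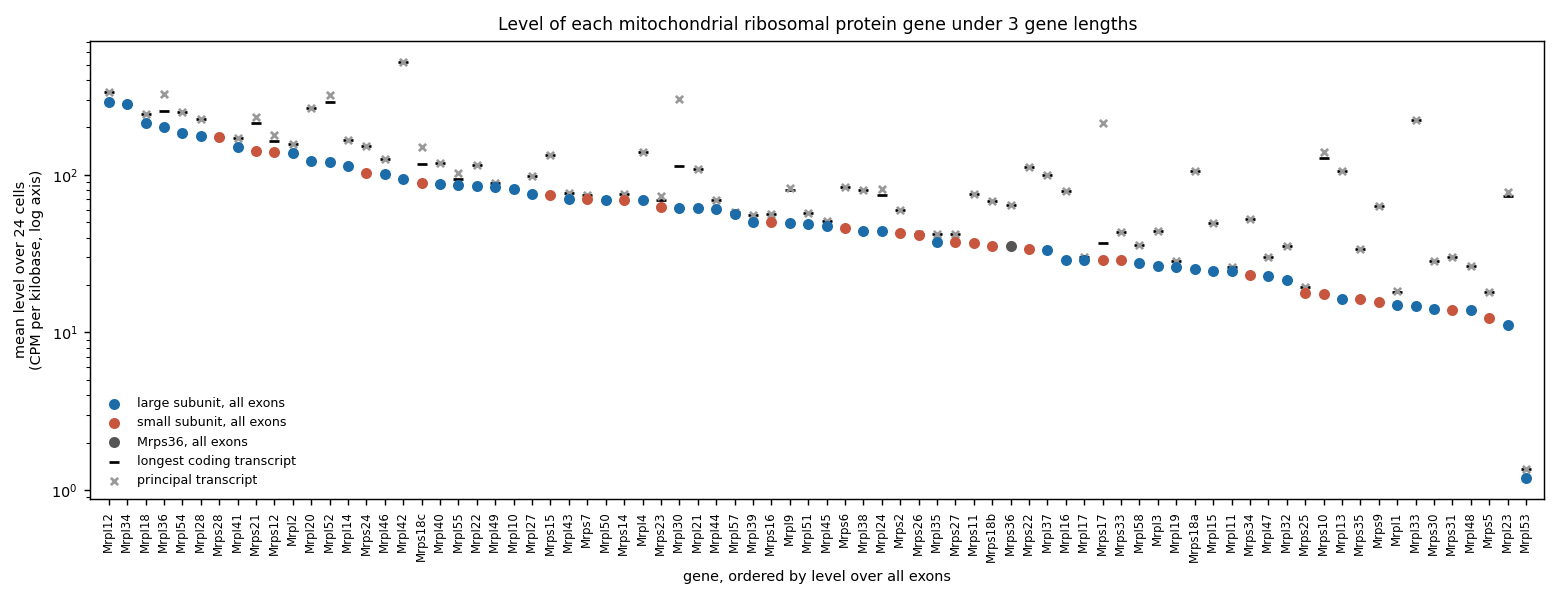
Mean level over 24 cells of each gene in CPM per kilobase (log axis), ordered by the level over all exons. Filled points use all exons (blue large subunit, red small subunit, grey Mrps36), dashes the longest coding transcript and crosses the principal transcript; Mrpl42 and Mrpl33 show wide gaps between the marks, and Mrpl53 lies far below the rest.

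The highest members per kilobase over all exons were Mrpl12, Mrpl34, Mrpl18, Mrpl36, Mrpl54, Mrpl28, Mrps28 and Mrpl41. Mrpl12, the stalk protein that contacts translation factors, had 72.1 CPM in its lowest cell, a median of 403 and a highest value of 943. Mrpl34 had 75.3, 160 and 329 CPM, a narrower spread. Mrpl18 had 6.84, 308 and 497 CPM. Mrpl12 was lowest in cell 19 and highest in cell 11, the same cells that were lowest and highest for the sum of all members. Mrps28 was the only small-subunit gene among these 8, at 174 CPM per kilobase, and its CPM ran from 0 to 313 with a median of 127.

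At the lower end stood Mrps31, Mrpl48, Mrps5, Mrpl23 and Mrpl53. Apart from Mrpl53 they lay between 11.1 and 13.9 CPM per kilobase over all exons. Only 2 of the 5 stayed among the lowest 5 with the longest coding transcript, and 2 with the principal transcript. Mrpl23, which lines the exit of the peptide tunnel, was nonetheless detected in all 24 cells, with 26.8, 44.4 and 101 CPM as its lowest, median and highest values. Its level per kilobase was 73.6 with the longest coding transcript, so its low rank belongs to its long annotated exons.

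Members with special roles in the ribosome were all detected. Mrpl10, at the base of the stalk that carries Mrpl12, was detected in 20 cells at 139 ± 105 CPM, and Mrpl11, beside it, in 23 cells at 79.3 ± 45.1 CPM. Mrpl45, which helps to anchor the ribosome at the inner membrane, was in all 24 cells at 124 ± 51.8 CPM. Mrpl58, a peptidyl-tRNA hydrolase built into the large subunit, and Mrpl44, a relative of ribonuclease III, were in 23 and 22 cells. Mrps12, a protein of the decoding centre, was in all 24 cells, with a lowest, median and highest value of 50.4, 141 and 335 CPM.

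The 3 relatives of bacterial S18 were all expressed, although a ribosome carries them at different places. Mrps18a, in the large subunit, was detected in 23 cells and had 25.2 CPM per kilobase. Mrps18b was detected in 19 cells and had 35.5. Mrps18c was in all 24 cells and had 88.8. With the longest coding transcript these levels were 105, 68.7 and 117, so only the first place of Mrps18c held under both lengths. Mrps36, outside the ribosome, was in all 24 cells at 44.8 ± 29.3 CPM, and Mrps30 was in 20.

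Most members varied from cell to cell by less than genes of the same mean. The variance of log2(CPM + 1) lay below the trend over genes for 51 of 77 members (66.2%, against 51.0% of 8266 genes). Of the nuclear respiration genes 59 of 77 lay below it, and of the cytosolic ribosomal proteins 47 of 82. The median residual was -0.76 for members and -0.039 for all genes. It was -0.56 for nuclear respiration genes and -0.11 for cytosolic ribosomal proteins. Mrps36, Mrps33, Mrpl23, Mrps34 and Mrpl22 had the smallest residuals. Mrpl49, Mrpl10, Mrps2, Mrpl46 and Mrpl13 had the largest, and each of these 5 had 0 counts in 2 or 3 cells. Mrpl49, at 3.45, ran from 0 to 441 CPM with a median of 153.

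Cells with more large-subunit RNA also had more small-subunit RNA. The summed level of the large subunit ran from 1865 CPM per kilobase in cell 19 to 5118 in cell 11, and that of the small subunit from 752 in cell 19 to 2050 in cell 4. Their Spearman rho over 24 cells was 0.75 and Pearson r 0.77, with an r of 0.71 without cells 4 and 19. The ratio of the sums was 2.74 ± 0.424, from 2.02 in cell 23 to 3.65 in cell 3. This ratio had little relation to the mitochondrially encoded share (rho -0.045). The sums share a library in each cell, so its quality enters both.

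**Figure D3:**
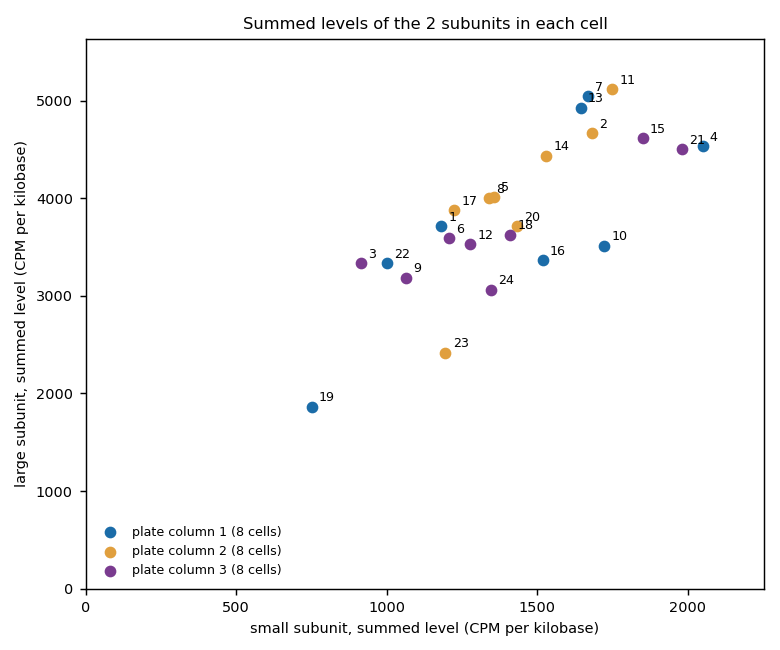
Summed level of the large subunit genes (y axis) against that of the small subunit genes (x axis), both in CPM per kilobase, for each of 24 cells, labelled by cell number and coloured by plate column. Cell 19 is lowest on both axes, while cell 11 is highest for the large and cell 4 for the small subunit.

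Single genes followed each other only weakly. The mean Spearman rho over the 2926 pairs of the 77 members was 0.098, against 0.0089 over all 17769741 pairs of genes detected in at least 12 cells. Pairs at 0.5 or more made up 3.08% of member pairs (90 pairs) and 1.04% of all pairs. Genes of the same subunit were no closer than genes of different ones: the mean was 0.101 within the large subunit, 0.089 within the small and 0.095 between them. With cytosolic ribosomal proteins the mean was -0.0085 and with nuclear respiration genes 0.066. Among the cytosolic ribosomal proteins themselves it was 0.157, and among the nuclear respiration genes 0.072. In sparse counts values of this size are weak. Scaling by median-ratio size factors gave 0.058 for members and 0.0031 for all genes, and leaving out the 5 cells low in Klf1 gave 0.063 and 0.0020 on counts that are not mitochondrially encoded, where all 24 cells gave 0.095 and 0.0081.

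Of the 77 members, 70 had a positive mean rho to the others. Mrpl12 had the highest at 0.23, then Mrpl20, Mrpl30, Mrpl3 and Mrps26, at 0.19 to 0.22. Mrpl4, of the tunnel wall, had the lowest at -0.16, followed by Mrps33, Mrps9, Mrpl58 and Mrps7. The closest pairs were Mrps2 with Mrps18c (0.72) and Mrpl30 with Mrps12 (0.71), and the most opposed were Mrps25 with Mrpl27 and Mrpl4 with Mrpl3, both at -0.64.

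Many members have an annotated start close to that of a neighbour. A protein-coding partner on the opposite strand with its start within 1000 bases was annotated for 33 of the 78 members (42.3%, against 10.9% of protein-coding genes). The latter include 10684 genes detected in no cell here, and the share among detected genes alone is not given. Mrps11 and Mrpl46 are partners of each other. Others face a gene of the same organelle: Mrpl36 faces the complex I gene Ndufs6, Mrpl47 the complex I gene Ndufb5, Mrps12 the mitochondrial seryl-tRNA synthetase Sars2 and Mrpl43 the mitochondrial helicase Twnk. Over the 16 pairs with both genes detected in at least 12 cells the median rho was -0.046, and 6 were positive. The other 338 such pairs in the table had a median of 0.010, with 179 positive. Mrpl18 with the chaperonin gene Tcp1 had 0.44, Mrps11 with Mrpl46 0.33, Mrps12 with Sars2 -0.11 and Mrpl49 with Fau -0.32. In 7 of the 16 pairs, those of Mrpl18 and Mrps11 among them, the exons overlap, and reads there cannot be told apart. Over the 9 pairs without overlap the median rho was -0.11.

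The members' share of counts ran opposite to the mitochondrially encoded share. Mitochondrially encoded genes took 3.55% ± 0.673 of counts, from 2.18% in cell 4 (exact binomial 95% interval 2.16 to 2.20) to 4.92% in cell 19 (4.89 to 4.96). The members' share was taken here as a percent of the counts that are not mitochondrially encoded. Mitochondrially encoded counts do not enter it, but the remaining counts of the cell enter the denominators of both measures. The members' share was 1.33% in cell 4 and 0.568% in cell 19, its lowest value. Over the 24 cells the Spearman rho was -0.54 and Pearson r -0.63. Without cells 4 and 19, the farthest from the median, these were -0.42 and -0.47. Within the 3 plate columns of 8 cells, rho was -0.79, -0.76 and -0.24.

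**Figure D4:**
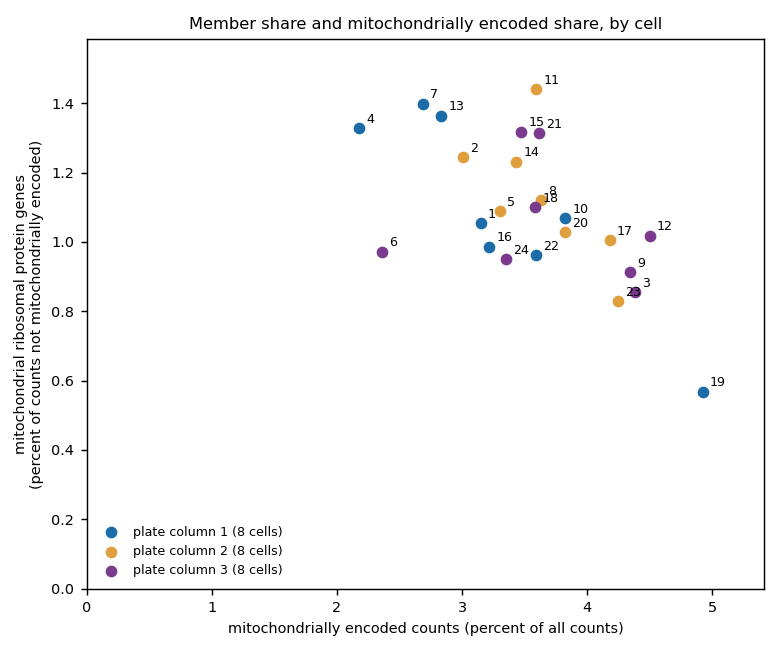
Share of counts in mitochondrial ribosomal protein genes (y axis, percent of counts not mitochondrially encoded) against the mitochondrially encoded share (x axis, percent of all counts), for 24 cells labelled by number and coloured by plate column. Cell 19 lies at the lower right, at 0.568% and 4.92%, and cell 6 at 2.36% is low on the x axis without being high on the y axis.

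Other measures of the cells moved with this relation, and their part in it was not tested. The mitochondrially encoded share was lower in cells with more total counts (rho -0.48), more genes detected (-0.53) and more Klf1 (-0.51), and higher in cells with more nuclear ribosomal RNA (0.37). The members' share was higher in cells with more total counts (0.45), genes detected (0.42, or 0.24 without cells 19 and 23) and Klf1 (0.64). With total counts it was -0.095 within plate column 2. With total counts regressed out of the ranks, the rho between members and mitochondrially encoded genes was -0.41, and without the 5 cells with Klf1 under 10 CPM it was -0.42. Those 5 cells had member shares of 0.568% to 1.05%, and the other 19 cells 0.855% to 1.44%, so the ranges overlap. The summed myeloid markers had a rho of -0.42 with the members' share, and the late erythroid markers 0.39.

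The mitochondrially encoded share is itself carried by few genes. The ribosomal RNA mt-Rnr2 averaged 12023 CPM and the messenger RNAs mt-Co1, mt-Cytb and mt-Nd1 6846, 6551 and 5489 CPM, while mt-Co2, mt-Atp6 and mt-Co3 were listed at 3.38, 3.72 and 4.69 CPM. How the counting treated reads that also match nuclear copies of mitochondrial DNA is not given in the sources used here, so these 3 values, and the share they enter, are uncertain. The genes did not all relate to the members in the same way. The rho with the members' share was -0.66 for mt-Co1, -0.61 for mt-Rnr2 and -0.55 for mt-Nd4, but 0.34 for mt-Nd1 and 0.26 for mt-Nd2. It was negative for 10 of the 13 mitochondrial protein and ribosomal RNA genes detected in at least 12 cells. For the summed ribosomal RNAs it was -0.62 and for the summed protein-coding genes -0.42, the latter being -0.76, -0.64 and 0 within the plate columns.

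Taken one by one, most members leaned the same way. A positive rho to the mitochondrially encoded share was found for 14 of 77 (18.2%, against 41.2% of genes detected in at least 12 cells). The median was -0.18 for members, -0.057 for all genes, 0.17 for cytosolic ribosomal proteins and -0.040 for nuclear respiration genes. At -0.4 or below stood 11 members (14.3%, against 7.75%) and at 0.4 or above 1 (1.3%, against 3.4%). Under size factors 20 members were positive (against 44.5% of nuclear genes), and without cell 19 there were 18 (23.4%, against 44.5%).

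**Figure D5:**
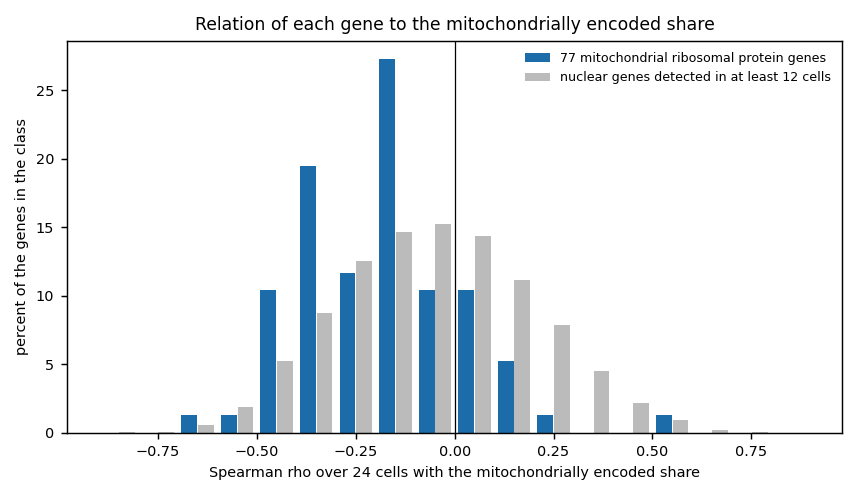
Spearman rho over 24 cells between each gene and the mitochondrially encoded share (x axis, bins of 0.1) and the percent of genes in each bin (y axis), for the 77 members (blue) and all nuclear genes detected in at least 12 cells (grey). The blue bars lie mostly left of 0, with a single member, Mrps33, beyond 0.5.

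Mrpl16, which lies near the peptidyl transferase centre, had the lowest rho at -0.65. It had 0 counts in 4 cells, 10, 12, 19 and 21, of which 12 and 19 had the highest mitochondrially encoded shares. Mrpl12 followed at -0.60, then Mrpl15 and Mrpl2 at -0.47 and Mrpl57 at -0.46. Mrps33, a small-subunit protein without a bacterial homologue, had the highest, at 0.53. Its lowest, median and highest values were 8.70, 45.7 and 138 CPM, the last in cell 10. Mrps7 (0.20), Mrpl1 (0.19), Mrps9 and Mrpl4 (both 0.13) came next, far below it. Across the 77 members, those with a higher mean rho to the other members had a lower rho to the mitochondrially encoded share (Spearman rho -0.69 across genes, which are not independent).

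Other genes of mitochondrial translation were present with the members. All 5 subunits that carry other symbols were detected in at least 12 cells, led per kilobase by Chchd1 at 152 ± 59.5 and Aurkaip1 at 102 ± 48.7 CPM per kilobase. Dap3, the GTP-binding small-subunit protein, was in all 24 cells and had a rho of 0.47 with the mitochondrially encoded share, against -0.42 for Aurkaip1. Of 14 translation factors measured, 10 were detected in at least 12 cells, among them the elongation factor Tufm, in all 24 cells at 87.8 ± 43.9 CPM per kilobase. So were 22 of 28 genes of ribosome assembly and ribosomal RNA modification, 12 of 12 of mitochondrial transcription and RNA stability and 16 of 17 mitochondrial aminoacyl-tRNA synthetases. Median levels of these lists were 8.60, 12.9, 25.4 and 13.3 CPM per kilobase, all below the members' 48.2.

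The members' share went with some of these groups and not with others. Its rho over 24 cells was 0.62 with the summed share of the 5 other subunits, 0.61 with that of mitochondrial transcription and RNA stability, 0.53 with assembly and 0.42 with translation factors. With the mitochondrial aminoacyl-tRNA synthetases it was 0.27, or 0.13 without cells 4 and 9. Within the plate columns it was 0.38, 0.21 and 0.71 for assembly and 0.40, 0.14 and 0.62 for translation factors. For the synthetases the column values were 0.095, 0.45 and 0.45. With the nuclear respiration genes together it was 0.44, and by complex it was 0.60 for complex I, 0.43 for complex II, 0.61 for complex III, 0.062 for complex IV and 0.15 for ATP synthase. These differences were not tested. Without cells 19 and 24, the farthest from the median, the value was 0.30 for respiration, 0.50 for complex I, 0.27 for complex II and -0.072 for ATP synthase. Within plate column 2 it was 0.45 for complex I, -0.26 for complex II, 0.024 for complex III and -0.26 for ATP synthase, and complex IV was at -0.31 within column 3. With cytosolic ribosomal proteins it was -0.17, and within the plate columns -0.52, 0.12 and -0.38. These sums share library and depth within each cell.

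Regulators of mitochondrial gene expression were thinner. Of 9, 5 were detected in at least 12 cells: Myc, Pprc1, Nrf1, Gabpb1 and Yy1. Myc, a growth regulator, was in all 24 cells at 845 ± 447 CPM and had a rho of 0.55 with the members' share, which was 0.88, 0.83 and 0.048 within the plate columns. Nrf1, whose letters are among those in the promoters above, was detected in 20 cells at 141 ± 106 CPM and had a rho of 0.14, or -0.29, 0.43 and 0.24 within the columns. Yy1, in 15 cells at 39.5 ± 54.5 CPM, had -0.25, with -0.81, 0.74 and -0.65 within the columns, so neither kept 1 direction.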

How the data were processed

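Single-cell Smart-seq2 libraries of 24 BFU-E cells were analysed. The authors deposited raw read counts per gene, used as deposited. The submitters' processing notes name the aligner STAR 2.4, the counter featureCounts and the build GRCm38. Which annotation and counting options were used is not given in the sources used here. Libraries were not stranded, per the labels. GENCODE M21 (GRCm38) gave symbols, lengths and positions for 49326 of 49585 rows, and 259 did not match. Total counts were 876983 to 2155010 per cell. Intervals and floors cover counting error only, since PCR copies are not independent molecules.

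CPM were computed from each cell's total over all rows. A gene was detected in a cell at 5 counts. Per-gene relations used 5962 genes detected in at least 12 cells, and the variance trend (lowess span 0.3, log2(CPM + 1)) 8266 genes detected in at least 6. Correlations are descriptions without p-values, and cells are not replicate animals. The statistics were tested on simulated counts. Python 3.11.15, numpy 2.4.6, scipy 1.17.1, pandas 2.3.3 and statsmodels 0.14.6 were used.

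The members and gene lists were chosen with earlier results of these data known. Members named are those at either end of level (8 highest, 5 lowest), detection (5), rho to the mitochondrially encoded share, rho to other members and residual variance (5 at each end), and 12 of special role. Of each other list the 3 highest per kilobase could be named. Other genes named, and the threshold of 10 CPM for Klf1, were chosen after their values were seen. Alternatives covered scaling, detection threshold, gene length, left-out cells and plate columns. The principal transcript length and the promoter windows printed were added after seeing the data.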

Additional observations from a re-analysis of the deposited data

Results flagged for a closer look

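Counts stood on 4 of the 5 annotated pseudogenes of the members, which the rule leaves out, and 3 of them had more than 3 counts in at least 1 cell, above what a count of 0 allows. Mrpl23-ps1, on chromosome 2, had 371 counts summed over the 24 cells and reached 5 counts in 24 of them, at 10.4 ± 6.03 CPM. Mrpl48-ps, on chromosome 4, had 55 counts in all and reached 5 counts in 3 cells, and Mrps36-ps1, on chromosome 17, had 70 and reached 5 in 5. Mrps36-ps2, on chromosome 7, had 15 counts in all and at most 3 in a cell. There are no control samples. Whether these are reads of the parent genes was not tested.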

How the results depend on the processing

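Of the values recomputed under each alternative, 223 kept their direction and moved little, 16 moved and 1 reversed among the main results. For a rho, moving little meant a change of 0.1 or less. The mean pairwise rho of members, 0.098, was itself below that limit, so its 0.058 under size factors counted as little moved. Levels and shares had to stay within their SD over cells. Counts could change in proportion, so 14 and 20 members with a positive rho counted as alike. Most of the 223 came from leaving out 1 of the 24 cells, which moves a value little. The values that moved or reversed came from the other alternatives. The median level per kilobase was 76.3 with the longest coding transcript and 79.3 with the principal transcript. The rho of the members' share with the mitochondrially encoded share was negative under each alternative run on the whole share: -0.41 with total counts regressed out, -0.42 without the 2 farthest cells, -0.79, -0.76 and -0.24 within plate columns 1, 2 and 3, -0.42 with the 13 protein-coding genes (0 within column 3) and -0.42 without the cells low in Klf1. Leaving out single cells gave -0.64 (without cell 6) to -0.48 (without cell 19). The rho with cytosolic ribosomal proteins was -0.29 on mean log2 values and -0.52, 0.12 and -0.38 within the columns, so it reversed in the second, and -0.26 to -0.087 without single cells. The rho with nuclear respiration was 0.63 as Pearson r, 0.27 on mean log2 values, 0.30 without 2 cells, 0.095 within column 2 and 0.37 to 0.53 without single cells. The mean pairwise rho was 0.074 without cell 19. A shorter window of 150 bases, most of them before the start, left out the last bases after the start. In it, 21 of 69 members held the ETS letters (30.4%, against 1008 of 4586 detected genes). It held the NRF1 letters in 5 (7.25%, against 4.47%) and the YY1 letters in 4 (5.80%, against 2.44%). It held the E-box in 2 (2.90%, against 9.01%) and TATAAA in 1 (1.45%, against 3.07%). The YY1 matches of Mrpl35, Mrpl37, Mrpl42 and Mrps24, centred 27, 30, 31 and 40 bases after the start, reached past its end. The causes of the other moves were not tested. No paired analysis was possible because there is 1 group. Depth limits the low genes: 0 counts allowed up to 3.42 CPM in the library with the fewest counts.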
